A study of Mus musculus with 13 samples.

Results

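The 10 genes described here serve the recognition and uptake of dying cells and debris. They were listed by symbol, and each matched exactly 1 of the 40787 genes of the count table. They were the 3 TAM receptors Axl, Mertk, and Tyro3, their ligands Gas6 and Pros1, the bridging protein gene Mfge8, the engulfment receptors Megf10, Stab1, and Timd4, and the engulfment adaptor Elmo1. Their RNA was measured by sequencing in 13 sciatic nerves of C57BL/6 mice at 5 days post crush (dpc), with 1 library per nerve. Of crushed nerves the stretch distal to the crush was taken. Control mice carried floxed Rptor alleles without Cre. RaptorKO mice carried the same alleles together with a tamoxifen-inducible Cre, so that Raptor, a component of mTORC1, is lost in Schwann cells (SCs). Mice of both genotypes received tamoxifen at 2 months of age, and 1 sciatic nerve was crushed 2 months later. The libraries came from 3 control injured, 3 RaptorKO injured, 3 control contralateral (uninjured), and 4 RaptorKO contralateral nerves. The epineurium had been removed and the cells of the nerve were not separated, so fewer cells of a type and less RNA per cell cannot be told apart in these values.

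After a crush, axons and myelin distal to the lesion break down, and SCs and macrophages clear the debris. Dying cells and debris expose phosphatidylserine, which the vitamin K-dependent proteins GAS6 and protein S (the product of Pros1) bind with one end while the other end binds TAM receptor tyrosine kinases. AXL responds to GAS6, whereas MERTK and TYRO3 respond to both ligands. MFG-E8 links phosphatidylserine to integrins, MEGF10 and stabilin-1 (Stab1) are scavenger-type engulfment receptors, TIM-4 (Timd4) binds phosphatidylserine directly, and ELMO1 acts with DOCK proteins to activate Rac during engulfment.

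Library totals ranged from 8200503 to 13581807 counts. Levels are given as counts per 1000000 after scaling with the TMM factors of edgeR (CPM), and levels of different genes are set beside each other only as CPM per kilobase of exon. Genes were tested when 2 or more libraries of a comparison held at least 50 counts, and were called at an adjusted p below 0.05 and a fold change above 1.2. The adjusted p-values come from the quasi-likelihood test of edgeR, adjusted by Benjamini-Hochberg across the genes tested in that comparison, and errors of log2 fold changes are standard errors (SE). The targeted gene Rptor was lower in RaptorKO than in control nerves, with a log2 fold change of -0.998 (SE 0.12, adjusted p = 5.00e-04) in contralateral and -0.68 (SE 0.15, adjusted p = 0.0167) in injured nerves, and the groups did not overlap in either. The SC markers were present in all libraries, with a summed level of 8 markers of 31732 to 43865 CPM in contralateral and 3503 to 5446 CPM in injured nerves. Both nerves of control replicate 3 differed from the other 11 libraries in sex-linked genes, with 14462 and 15017 counts of Xist against 4 to 17. Their summed counts of Y-linked genes were 10 to 20 against 1456 to 2338. By these counts control replicate 3 was female and the other 11 libraries, with all RaptorKOs, were male. Sex was thus not balanced between the genotypes. RaptorKO injured 2 held the lowest macrophage marker level of the injured nerves (1569 CPM against 2487 to 3283), and RaptorKO contralateral 3 held the highest adipocyte marker level (302 CPM against 0 to 77.8 in the other 12 libraries).

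The first question was how the 10 genes respond to a crush. Of the 9 that passed the count filter in control nerves, 5 rose (Axl, Pros1, Mfge8, Megf10, and Stab1), 2 fell (Gas6 and Elmo1), and 2 (Mertk and Tyro3) were not called. Among all 12430 genes tested, 32.4% were called higher and 32.9% lower. In RaptorKO nerves 6 of 9 rose, Tyro3 being added to those of the controls, and Gas6 and Elmo1 fell, against 30.5% higher and 28.5% lower of 12515 genes. The median log2 fold change of the 9 genes was 0.80 in both genotypes, beside a median of -0.00153 in control and 0.03 in RaptorKO nerves over all genes tested. The excess of the higher over the lower calls is a description of 9 genes and was not tested as a set.

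**Figure D1:**
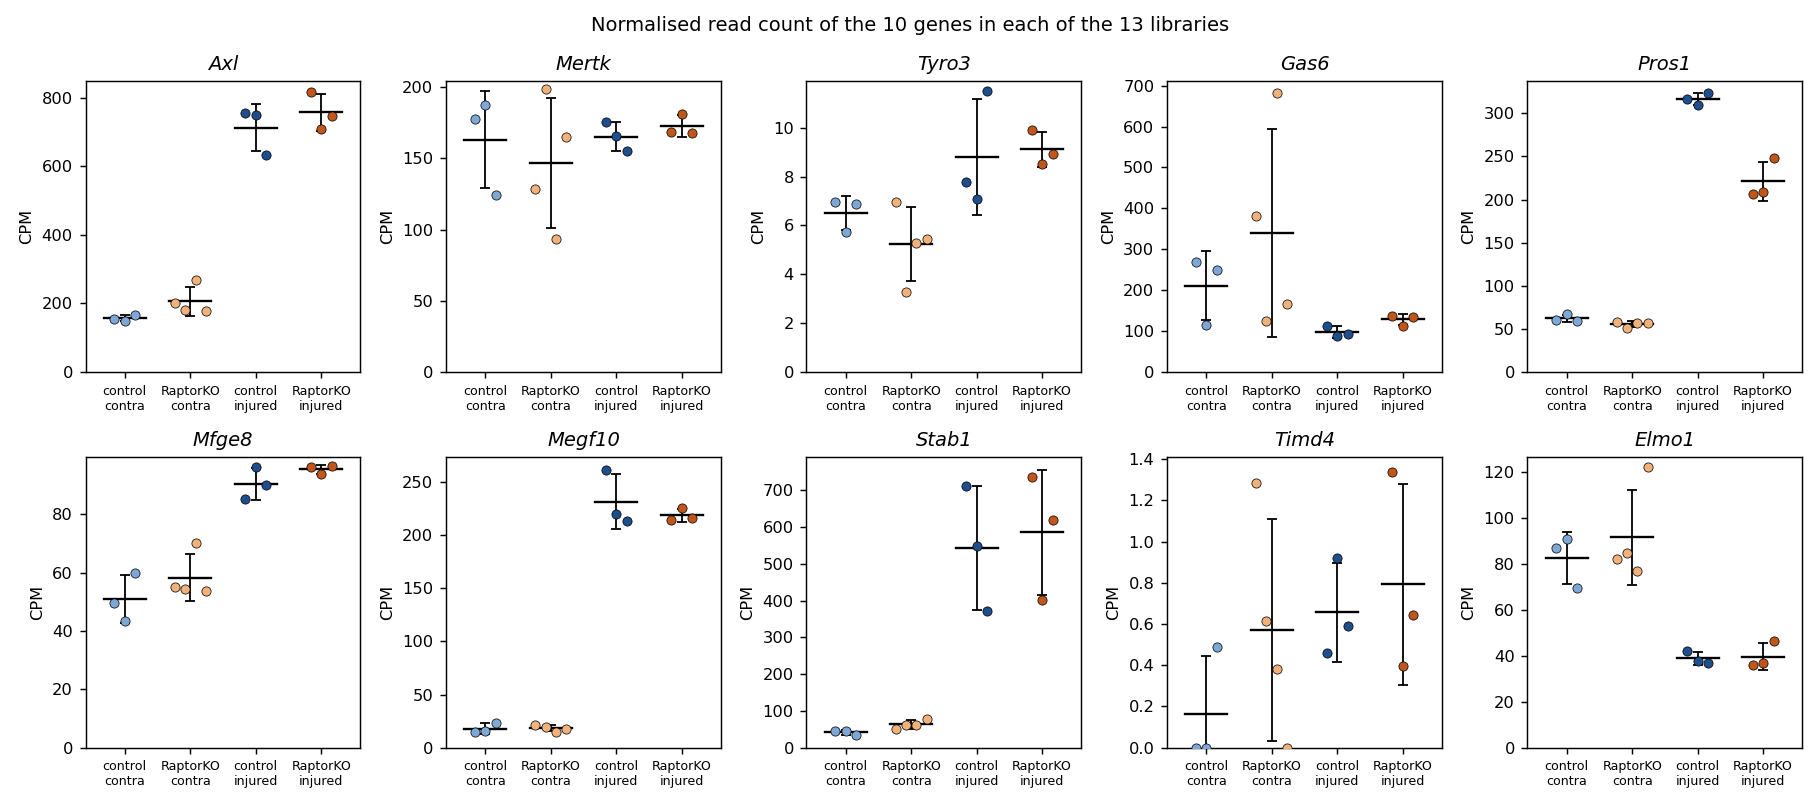
Each panel shows 1 of the 10 genes, with the normalised read count (CPM, linear axis from 0) of each of the 13 libraries as a point, in replicate order within a group, and the mean ± SD of the group as a line with error bars. Axl, Pros1, Megf10, and Stab1 of injured nerves lie apart from those of contralateral nerves, Mertk stays between 93.5 and 199 CPM, and Gas6 spreads from 115 to 681 CPM in contralateral nerves.

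Among the TAM receptors, Axl had 156, 150, and 167 CPM in control contralateral and 757, 750, and 634 CPM in control injured nerves. It had 201, 181, 268, and 178 CPM in RaptorKO contralateral and 816, 710, and 747 CPM in RaptorKO injured nerves. Injured and contralateral nerves were thus far apart in both genotypes, while the injured groups overlapped each other. The rise was 4.45-fold in controls (log2 fold change 2.15, SE 0.11, adjusted p = 8.16e-09) and 3.65-fold in RaptorKOs (1.87, SE 0.14, adjusted p = 1.45e-06).

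Mertk encodes a receptor by which macrophages take up apoptotic cells, and the paper also names phagocytosis through TAM receptors in SCs. Mertk was not called after injury in either genotype. It had 178, 188, and 124 CPM in control contralateral and 175, 166, and 155 CPM in control injured nerves. RaptorKO contralateral nerves had 128, 199, 93.5, and 165 CPM and RaptorKO injured nerves 169, 181, and 167 CPM. Injured and contralateral libraries overlapped in both genotypes, and the spread was larger among contralateral nerves (SD 34.3 and 45.7 CPM) than among injured nerves (SD 10.2 and 7.76 CPM). The log2 fold change was -0.01 (SE 0.14, adjusted p = 0.959) in controls and 0.23 (SE 0.21, adjusted p = 0.359) in RaptorKOs.

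Tyro3 was scarce, with 42 to 117 counts per library. It lay between 5.73 and 6.94 CPM in control contralateral, 3.30 and 6.96 CPM in RaptorKO contralateral, 7.09 and 11.5 CPM in control injured, and 8.53 and 9.91 CPM in RaptorKO injured nerves. Its log2 fold change after injury was 0.41 (SE 0.26, adjusted p = 0.180) in controls and 0.80 (SE 0.27, adjusted p = 0.0252) in RaptorKOs. Injured and contralateral libraries did not overlap in either genotype. The call in RaptorKOs was lost without RaptorKO injured 1 or 3 or without RaptorKO contralateral 2, with an adjusted p of up to 0.0905, and the difference between the genotypes in this response was not called (interaction 0.37, SE 0.37, adjusted p = 0.741).

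Per length, the composition of the receptor pool differed between injured and contralateral nerves, given here as a description. Axl made up 40.2% to 52.7% of the summed CPM per kilobase of the 3 receptors in control contralateral and 43.6% to 70.4% in RaptorKO contralateral nerves. In injured nerves its share was 77.0% to 79.1% in controls and 76.6% to 80.0% in RaptorKOs. Mertk supplied most of the rest, with 53.4% ± 6.91 (SD, n = 3) of the pool in control contralateral and 21.1% ± 0.785 (SD, n = 3) in control injured nerves, whereas Tyro3 stayed at or below 1.76%. The highest Axl share of any contralateral nerve was that of RaptorKO contralateral 3, where the ratio of Axl to Mertk was 2.47 against 0.687 to 1.35 in the other 6, and it still lay below the lowest injured share.

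The 2 ligands moved in opposite directions. Pros1 had 60.5, 67.3, and 58.9 CPM in control contralateral and 316, 310, and 324 CPM in control injured nerves. It had 57.5, 51.0, 56.8, and 57.2 CPM in RaptorKO contralateral and 207, 209, and 248 CPM in RaptorKO injured nerves. All injured libraries of both genotypes lay above all contralateral ones, and the injured RaptorKOs lay below the injured controls. Pros1 rose 4.99-fold in controls (log2 fold change 2.32, SE 0.10, adjusted p = 1.28e-09) and 3.96-fold in RaptorKOs (1.99, SE 0.10, adjusted p = 6.51e-08).

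Gas6 had 268, 115, and 251 CPM in control contralateral and 114, 87.4, and 93.4 CPM in control injured nerves. RaptorKO contralateral nerves had 381, 126, 681, and 167 CPM and RaptorKO injured nerves 137, 113, and 135 CPM. The contralateral libraries thus differed up to several-fold within a genotype, and the injured ones did not. Gas6 fell 2.19-fold after injury in controls (log2 fold change -1.13, SE 0.25, adjusted p = 0.00154), where the lowest contralateral library (115 CPM) lay just above the highest injured one (114 CPM). In RaptorKOs it fell 2.65-fold (-1.40, SE 0.48, adjusted p = 0.0281), with overlap between the groups, and this call was lost when any 1 of the 3 injured libraries or RaptorKO contralateral 1 was left out (adjusted p up to 0.0832). Without RaptorKO contralateral 3 the log2 fold change was -0.83. An exon of Gas6 overlaps one of Tmem255b on the opposite strand over 34 bases, and whether reads were assigned by strand is not stated.

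Per kilobase of exon, the ratio of Pros1 to Gas6 was 0.218 ± 0.128 (SD, n = 3) in control contralateral and 0.153 ± 0.0955 (SD, n = 4) in RaptorKO contralateral nerves. After injury it was 1.74, 2.21, and 2.16 in controls and 0.942, 1.15, and 1.14 in RaptorKOs. Gas6 was the more abundant ligand in each of the 7 contralateral nerves and Pros1 in each of the 3 control injured nerves. In the injured RaptorKOs the 2 ligands were near parity, and the 2 injured groups did not overlap in this ratio. The ratio was formed after both values were known and was not tested.

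**Figure D2:**
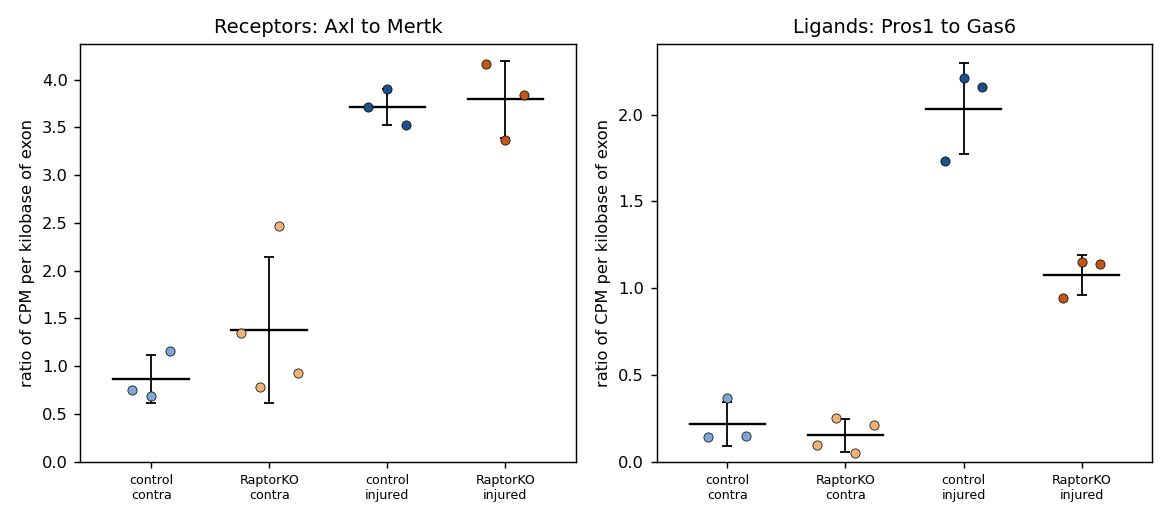
The left panel shows the ratio of Axl to Mertk and the right panel that of Pros1 to Gas6, both from CPM per kilobase of exon on a linear axis from 0, with 1 point per library and the mean ± SD of each group. Axl to Mertk lies at 3.37 to 4.17 in injured nerves of both genotypes, whereas Pros1 to Gas6 lies at 1.74 to 2.21 in control injured and 0.942 to 1.15 in RaptorKO injured nerves.

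Mfge8 had 49.7, 43.5, and 59.9 CPM in control contralateral and 85.2, 96.0, and 90.2 CPM in control injured nerves. In RaptorKOs it had 55.0, 54.3, 70.3, and 53.7 CPM in contralateral and 96.1, 93.7, and 96.5 CPM in injured nerves. The rise was modest and free of overlap in both genotypes, with 1.74-fold in controls (adjusted p = 7.78e-05) and 1.63-fold in RaptorKOs (adjusted p = 3.23e-04). Without RaptorKO contralateral 3, the contralateral library highest in Mfge8, its log2 fold change in RaptorKOs was 0.79.

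The engulfment receptors Megf10 and Stab1 showed the largest changes of the 9 genes in both genotypes. Megf10 had 14.4, 15.7, and 23.6 CPM in control contralateral and 261, 220, and 213 CPM in control injured nerves, a 12.7-fold rise (log2 fold change 3.67, SE 0.16, adjusted p = 2.13e-09). In RaptorKOs it had 21.2, 19.7, 14.6, and 17.9 CPM in contralateral and 214, 225, and 216 CPM in injured nerves, an 11.9-fold rise (3.57, SE 0.13, adjusted p = 8.51e-09). The injured libraries of both genotypes kept within a narrow range of 213 to 261 CPM.

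Stab1 had 46.7, 44.4, and 34.2 CPM in control contralateral and 711, 548, and 371 CPM in control injured nerves. RaptorKO contralateral nerves had 50.4, 62.2, 62.0, and 79.3 CPM and RaptorKO injured nerves 736, 402, and 619 CPM. Stab1 rose 12.7-fold in controls (log2 fold change 3.67, SE 0.22, adjusted p = 2.92e-08) and 9.21-fold in RaptorKOs (3.20, SE 0.21, adjusted p = 4.07e-07). Unlike Megf10 it spread widely among injured nerves, with an SD of 170 CPM in each genotype, and its lowest injured values were those of control injured 3 and RaptorKO injured 2. Without these its log2 fold changes were 3.90 in controls and 3.42 in RaptorKOs. These are also the injured libraries with the lowest summed level of the 10 macrophage markers (2487 and 1569 CPM, against 3007 to 3283 CPM in the other 4). The macrophage markers themselves rose after injury, with 9 of 10 called higher in controls and 8 of 10 in RaptorKOs. Of all genes tested, 32.4% and 30.5% were called higher. The part of macrophages in the rise of Stab1 was not tested. An exon of Stab1 overlaps one of Nt5dc2 on the opposite strand over 112 bases.

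Timd4, a receptor of some resident tissue macrophages, was too low to be tested. It had 0 to 5 counts in control contralateral, 0 to 12 in RaptorKO contralateral, 5 to 10 in control injured, and 5 to 15 in RaptorKO injured libraries, and failed the filter in each comparison.

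Elmo1 went the other way from the receptor genes Axl, Megf10, and Stab1. It had 86.9, 90.5, and 69.5 CPM in control contralateral and 42.0, 37.8, and 36.8 CPM in control injured nerves, a 2.16-fold fall (log2 fold change -1.11, SE 0.12, adjusted p = 5.11e-06). In RaptorKOs it had 82.2, 84.5, 76.8, and 122 CPM in contralateral and 36.0, 36.6, and 46.3 CPM in injured nerves, a 2.31-fold fall (-1.21, SE 0.17, adjusted p = 1.48e-04). No injured library reached the lowest contralateral one in either genotype. The exons of Elmo1 and of the antisense gene Gm32036 share 403 bases.

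Ranked by mean CPM per kilobase, the order in control contralateral nerves was Gas6 (82.9 ± 33.0, SD, n = 3), Mertk (37.6 ± 7.91), Axl (31.3 ± 1.69), Pros1 (15.2 ± 1.09), Mfge8 (10.9 ± 1.76), Elmo1 (6.54 ± 0.894), Stab1 (4.06 ± 0.645), Megf10 (2.32 ± 0.644), Tyro3 (1.05 ± 0.109), and Timd4 (0.0752 ± 0.130). Only Mertk and Axl overlapped among neighbours in this order. In control injured nerves Axl led (142 ± 13.7), followed by Pros1 (77.4 ± 1.72), Stab1 (52.8 ± 16.5), Gas6 (38.5 ± 5.40), Mertk (38.1 ± 2.36), Megf10 (30.0 ± 3.38), and Mfge8 (19.3 ± 1.16), with Elmo1, Tyro3, and Timd4 at or below 3.34 in each library. Here Stab1, Gas6, and Mertk overlapped and could not be ranked. In RaptorKO injured nerves Axl stayed first (151 ± 10.6), and Stab1 (56.9 ± 16.5), Pros1 (54.1 ± 5.65), and Gas6 (50.4 ± 5.20) overlapped. Stab1 also overlapped Mertk (39.8 ± 1.79) in this group.

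The second question was whether the loss of Raptor in SCs altered these genes. In injured nerves 1 of 9, Pros1, was called lower in RaptorKOs and none higher, against 4.44% lower and 4.09% higher of the 12040 genes tested. Without adjustment, Gas6 was higher at a p below 0.05, and DESeq2 also called Gas6 higher. In contralateral nerves 1 of 9, Stab1, was called higher and none lower, against 4.49% higher and 5.68% lower of 11878 genes. No gene was lower there at an unadjusted p below 0.05, and DESeq2 called none lower. The 2 comparisons use different libraries.

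**Figure D3:**
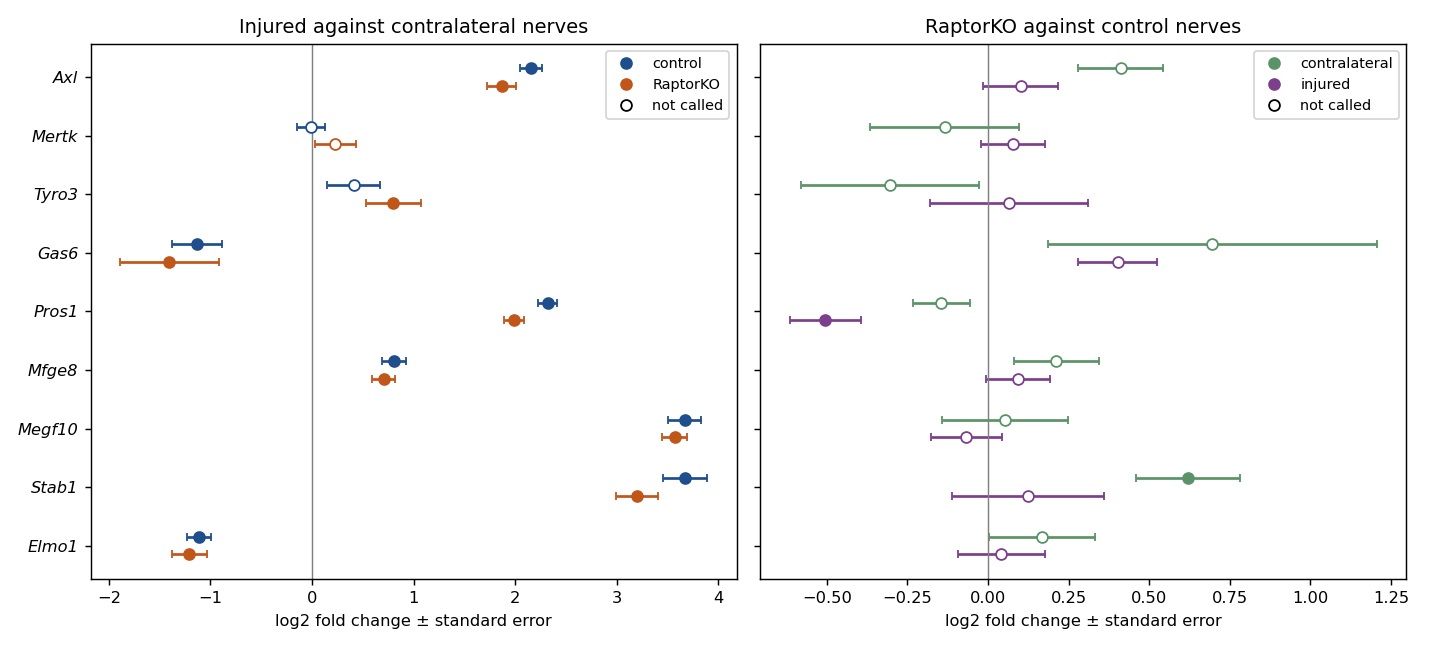
The horizontal axis gives the log2 fold change with its standard error for the 9 tested genes, for injured against contralateral nerves of each genotype (left) and for RaptorKO against control nerves of each side (right). Filled points were called at an adjusted p below 0.05 and a fold change above 1.2. On the left 7 genes are filled in controls and 8 in RaptorKOs, on the right only Pros1 in injured and Stab1 in contralateral nerves, and the 2 panels have different scales.

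Pros1 was 1.42-fold lower in RaptorKO than in control injured nerves (log2 fold change -0.50, SE 0.11, adjusted p = 0.0172), with means of 221 ± 23.1 and 317 ± 7.05 CPM (SD, n = 3 each). Each of the 3 RaptorKO libraries lay below each of the 3 controls. The call was lost without control injured 2, control injured 3, or RaptorKO injured 1, with an adjusted p of up to 0.0849, while the log2 fold change stayed between -0.59 and -0.46 in 13 alternatives. The libraries of control replicate 3 are the female ones by sex-linked counts, and all RaptorKO libraries are male. In contralateral nerves Pros1 had a log2 fold change of -0.14 (SE 0.09, adjusted p = 0.346). The difference between the genotype effects of the 2 sides was -0.36 (SE 0.13, adjusted p = 0.189, edgeR's quasi-likelihood test), so that Pros1 was not called to respond differently to injury. Moving in the same direction among injured nerves, the summed SC markers were 5035 to 5446 CPM in controls and 3503 to 4358 CPM in RaptorKOs without overlap. Of the 8 SC markers, 3 were called lower, beside 4.44% of all genes tested. Endothelial markers (256 to 394 against 468 to 741 CPM) and pericyte and vascular smooth muscle markers (465 to 583 against 904 to 1249 CPM) were higher in RaptorKOs, also without overlap. The part of these cell types in the difference of Pros1 was not tested.

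Gas6 pointed the opposite way in injured nerves, 1.32-fold higher in RaptorKOs (log2 fold change 0.40, SE 0.12, adjusted p = 0.0699, edgeR's quasi-likelihood test) and just missing the threshold. Of 13 alternatives, 5 called it. Fibroblast markers pointed the same way among injured nerves (4578 to 7007 CPM in controls, 6323 to 10551 CPM in RaptorKOs), with overlap. Of the 5 fibroblast markers tested 2 were called higher, as was 1 of 4 perineurial markers, beside 4.09% of all genes tested. Mast cell (8.47 to 52.2 against 102 to 194 CPM) and erythrocyte markers (2.66 to 14.5 against 27.7 to 47.2 CPM) were higher in injured RaptorKOs without overlap, beside the endothelial and pericyte markers given above. The part of these cells in the difference of Gas6 was not tested. The other 7 tested genes had log2 fold changes between -0.07 and 0.12 with adjusted p-values from 0.680 to 0.923 in injured nerves, and among them Axl had a fold change of 1.07 and Megf10 one of 1.05. These values do not show that the genotypes were equal, in particular for Stab1 and Tyro3, whose SEs were 0.24 and 0.25.

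Stab1 was 1.54-fold higher in RaptorKO than in control contralateral nerves (log2 fold change 0.62, SE 0.16, adjusted p = 0.0363), with means of 63.5 ± 11.9 (SD, n = 4) and 41.8 ± 6.64 CPM (SD, n = 3) and no overlap. The lowest RaptorKO library (50.4 CPM) lay close to the highest control (46.7 CPM). The call held in 7 of 14 alternatives and was lost when any of the 3 controls, RaptorKO contralateral 2, or RaptorKO contralateral 4 was left out (adjusted p up to 0.118). The 10 macrophage markers moved with it. Their summed level was 154 to 168 CPM in control and 262 to 329 CPM in RaptorKO contralateral nerves. Of the 8 that were tested 6 were called higher, beside 4.49% of all genes tested. None of the 10 was at 0 counts in any contralateral library. Further marker lists were higher in contralateral RaptorKOs without overlap, namely those of fibroblasts (4736 to 5642 against 7602 to 10449 CPM, 3 of 6 called), mast cells (12.0 to 58.4 against 79.95 to 138 CPM, 2 of 5 called), and erythrocytes (46.2 to 88.1 against 90.7 to 161 CPM, 1 of 3 tested called). The part of these cells in the difference of Stab1 was not tested.

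Axl was 1.33-fold higher in RaptorKO contralateral nerves without overlap (log2 fold change 0.41, SE 0.13, adjusted p = 0.0788) but was not called. Of 14 alternatives, 4 called it, among them DESeq2 and the replicate block, which between genotypes joins nerves of different mice. Without RaptorKO contralateral 3, the library with the highest level (268 CPM), its log2 fold change was 0.27. Gas6 had a log2 fold change of 0.70 with an SE of 0.51 (adjusted p = 0.449), which was 0.11 without that library. The other 6 tested genes had adjusted p-values from 0.346 to 0.903.

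**Figure D4:**
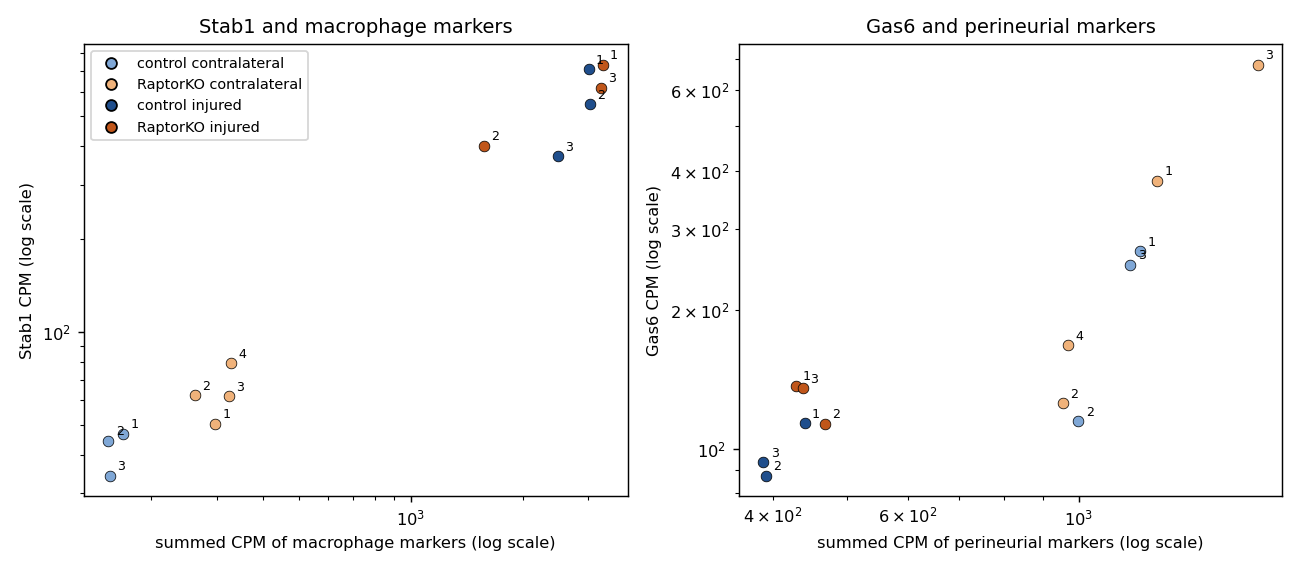
Each point is 1 of the 13 libraries with its replicate number, coloured by group, with the summed CPM of the markers on the horizontal and the CPM of the gene on the vertical axis (both log scales). On the left, contralateral RaptorKO nerves lie above control nerves both in Stab1 and in the 10 macrophage markers. On the right, Gas6 is plotted against the 4 perineurial markers, and RaptorKO contralateral 3 is highest in both, at 681 and 1710 CPM.

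Gas6 varied among contralateral nerves together with perineurial, adipocyte, and skeletal muscle markers. The 4 libraries highest in Gas6 (control 1 and 3, RaptorKO 1 and 3, with 251 to 681 CPM) had summed levels of the 4 perineurial markers of 1168 to 1710 CPM, and the other 3, with 115 to 167 CPM of Gas6, had 954 to 999.7 CPM. The same 4 libraries held 21.5 to 302 CPM of the 5 adipocyte markers, and the other 3 at most 0.388 CPM. Skeletal muscle markers were low but split alike, with 8.04 to 26.1 CPM against 3.30 to 6.86 CPM. Endothelial markers did so narrowly, with 483 to 570 CPM against 456 to 482 CPM. Mertk was lowest in 3 of these 4 libraries, with 93.5 to 128 CPM, while control contralateral 1 had 178 CPM. The split was seen after the values were known, and the part of sheath, fat, muscle, or vessel tissue in it was not tested. Of 4 perineurial markers, 4 were called lower after injury in controls and 3 in RaptorKOs, beside the fall of Gas6. Of all genes tested, 32.9% and 28.5% were called lower.

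The interaction of genotype and injury was not called for any of the 9 genes by edgeR's quasi-likelihood test, against 1.41% lower and 1.07% higher of 12851 genes. Without adjustment Pros1 alone had a p below 0.05, and DESeq2 called none. On the log2 scale the interactions ranged from -0.49 for Stab1 (SE 0.33) to 0.37 for Tyro3 (SE 0.37).

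Because Pros1 and Stab1 are the genes called between genotypes, the sequences around their start sites are shown, from 250 bases before to 50 bases after the start, 5′ to 3′ on the strand of the gene (RefSeq, GRCm38.p6). Pros1 spans 62854307 to 62929346 on chromosome 16 (plus strand) and Stab1 31139013 to 31168641 on chromosome 14 (minus strand), and the windows hold the start of the first exon. Capitals mark matches to the motifs searched on either strand, the AP-1 motif TGANTCA, the NF-Y motif CCAAT, and the cell cycle element TTTGAA.

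Pros1, chr16:62854057-62854356: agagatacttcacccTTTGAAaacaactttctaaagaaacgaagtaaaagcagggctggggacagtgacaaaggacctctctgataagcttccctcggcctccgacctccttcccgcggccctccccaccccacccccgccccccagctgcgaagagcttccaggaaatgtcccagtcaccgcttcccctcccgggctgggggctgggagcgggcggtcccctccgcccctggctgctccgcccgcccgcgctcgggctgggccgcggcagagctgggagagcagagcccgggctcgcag

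Stab1, chr14:31168592-31168891: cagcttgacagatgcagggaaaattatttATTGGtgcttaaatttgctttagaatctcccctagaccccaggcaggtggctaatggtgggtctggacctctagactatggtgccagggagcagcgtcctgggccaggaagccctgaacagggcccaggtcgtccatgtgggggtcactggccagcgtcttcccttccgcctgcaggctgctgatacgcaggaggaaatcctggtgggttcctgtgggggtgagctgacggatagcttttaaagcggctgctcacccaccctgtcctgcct

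The Pros1 window held 1 match to TTTGAA at position -235 from the start and was 66.7% G and C, and the Stab1 window held 1 match to CCAAT, on the minus strand of the window, at position -221 and was 57.3% G and C. TTTGAA occurs in 17.9%, CCAAT in 37.4%, and TGANTCA in 7.81% of all 32851 windows of this kind. No window of the 9 genes that could be matched held TGANTCA, and Megf10 had no window in the table. Of the others, Timd4 held CCAAT once and the second of the 2 Elmo1 windows held it at 2 positions. These matches are letters in a window and say nothing about binding.

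Genes whose level followed a TAM gene most closely over the 13 libraries were taken by Pearson's r of log2 CPM among 12851 genes, as a description across libraries of 4 groups. For Axl these were Steap3, Emp3, and Abcc3 (r = 0.994 each), and for Pros1 Zc3hav1, Ccnb2, and Serinc5 (r from 0.994 to 0.995). For Gas6 they were Gpc6, Ntn1, and Slc25a12 (0.964 to 0.988), for Tyro3 Pdik1l, Ube2q1, and Abcc4 (0.911 to 0.922), and for Mertk Zfp69, Dph5, and Zswim9 (0.792 to 0.838). Mertk thus had the weakest partners of the 5. After the group means were subtracted, Gas6 was still followed at r = 0.979 to 0.986 by Gas1, Gpc6, and Ccdc80. The closest to Mertk were then Taf6, Gpt2, and Mt1 (0.908 to 0.951), to Axl Carhsp1, Zyx, and Nucb1 (0.943 to 0.947), to Pros1 Zbtb33, Nbeal1, and Cd2ap (0.910 to 0.923), and to Tyro3 Pxylp1, Ube2q1, and Map3k7 (0.907 to 0.921). These are the highest of 12851 values of r from only 13 libraries. Such a maximum can be high for genes without any relation, and none of these values was tested.

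The 10 genes were set beside 6 lists of other genes of the same process. Of all genes tested, 32.4% were called higher and 32.9% lower after injury in controls. In RaptorKOs these shares were 30.5% higher and 28.5% lower, and the counts of each list stand beside them. Of 12 genes for phosphatidylserine exposure and eat-me or stop signals, 7 rose and 1 fell after injury in controls, and 7 rose and 2 fell in RaptorKOs. Lgals3, which encodes the debris-binding lectin galectin-3, rose from 28.6 to 1908 CPM in controls and from 29.0 to 1860 CPM in RaptorKOs. Anxa1, encoding the phosphatidylserine-binding annexin A1, also rose (log2 fold changes 2.10 and 1.80), while Tmem30a, a subunit of the flippases that keep phosphatidylserine inside the cell, fell (-0.65 and -0.49). Cd47, the don't-eat-me signal, fell in RaptorKOs (-0.34, adjusted p = 0.0399). The median log2 fold change of the list was 0.56 in controls and 0.63 in RaptorKOs.

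Of 18 tested genes for other phosphatidylserine receptors and bridging proteins, 12 rose in each genotype, and 3 fell in controls and 2 in RaptorKOs. Of all genes tested, 32.4% rose and 32.9% fell in controls, and 30.5% rose and 28.5% fell in RaptorKOs. C1qa, a chain of the complement opsonin C1q, rose 15.1-fold in controls and 9.55-fold in RaptorKOs, and Tyrobp, the signalling adaptor of TREM2, rose 16.8-fold in controls. TREM2 itself, a lipid-sensing receptor of phagocytes, is encoded by Trem2, which rose 43.0-fold in controls (from 2.66 to 118.1 CPM) and 16.5-fold in RaptorKOs (from 6.35 to 105 CPM). Itgb5, an integrin chain that binds MFG-E8, fell in both (log2 fold changes -0.62 and -0.48), Itgav, its partner, fell in RaptorKOs (-0.48), and the MEGF10 relative Pear1 fell in controls (-0.97). The 13 tested Fc and complement receptor genes held the largest share of calls, with 12 higher in each genotype and medians of 3.74 and 3.49. Fcer1g, the Fc receptor signalling chain, rose 21.1-fold in controls and 11.2-fold in RaptorKOs, C3ar1 rose 13.3-fold in controls, Itgax rose 24.8-fold in RaptorKOs, and C3 fell in controls from 418 to 51.4 CPM. Itgam and Cd68 are on these lists and on the macrophage marker list too.

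Of 19 tested genes of the engulfment machinery, the partners of Elmo1 among them, 11 rose and 4 fell in controls, and 10 rose and 4 fell in RaptorKOs. The shares over all genes were again 32.4% higher and 32.9% lower in controls and 30.5% and 28.5% in RaptorKOs. The blood cell GTPase gene Rac2 (25.0-fold) and the exchange factor gene Vav1 (20.5-fold) led in controls, and Vav1 (15.5-fold) and Dock2 (9.24-fold), which encodes a leukocyte partner of ELMO1, in RaptorKOs. Gulp1, which encodes an adaptor of engulfment receptors, fell like Elmo1 (log2 fold changes -1.19 and -1.49), as did the actin regulator Wasl (-0.86 and -0.68). Of 14 phagosome maturation genes 9 rose in each genotype, among them the NADPH oxidase genes Cyba (7.18-fold and 5.38-fold), Cybb (11.7-fold in controls), and Ncf1 (12.98-fold in RaptorKOs), whereas the early endosome gene Rab5a fell in controls (log2 fold change -0.57). Genes for TAM ligand carboxylation, receptor shedding, and signalling stayed nearest to these shares over all genes. In that list 7 genes were higher and 5 lower of 15 in controls, and 5 higher and 4 lower of 14 in RaptorKOs. Among them Socs3, a feedback inhibitor of cytokine signalling, rose (1.99 and 2.29), as did the interferon receptor genes Ifnar1 in controls (0.53) and Ifnar2 in RaptorKOs (1.02). Pik3r1, the regulatory subunit of PI3-kinase, fell (-2.09 and -1.95), and so did Adam10, a protease that sheds membrane proteins (-1.59 and -1.53).

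**Figure D5:**
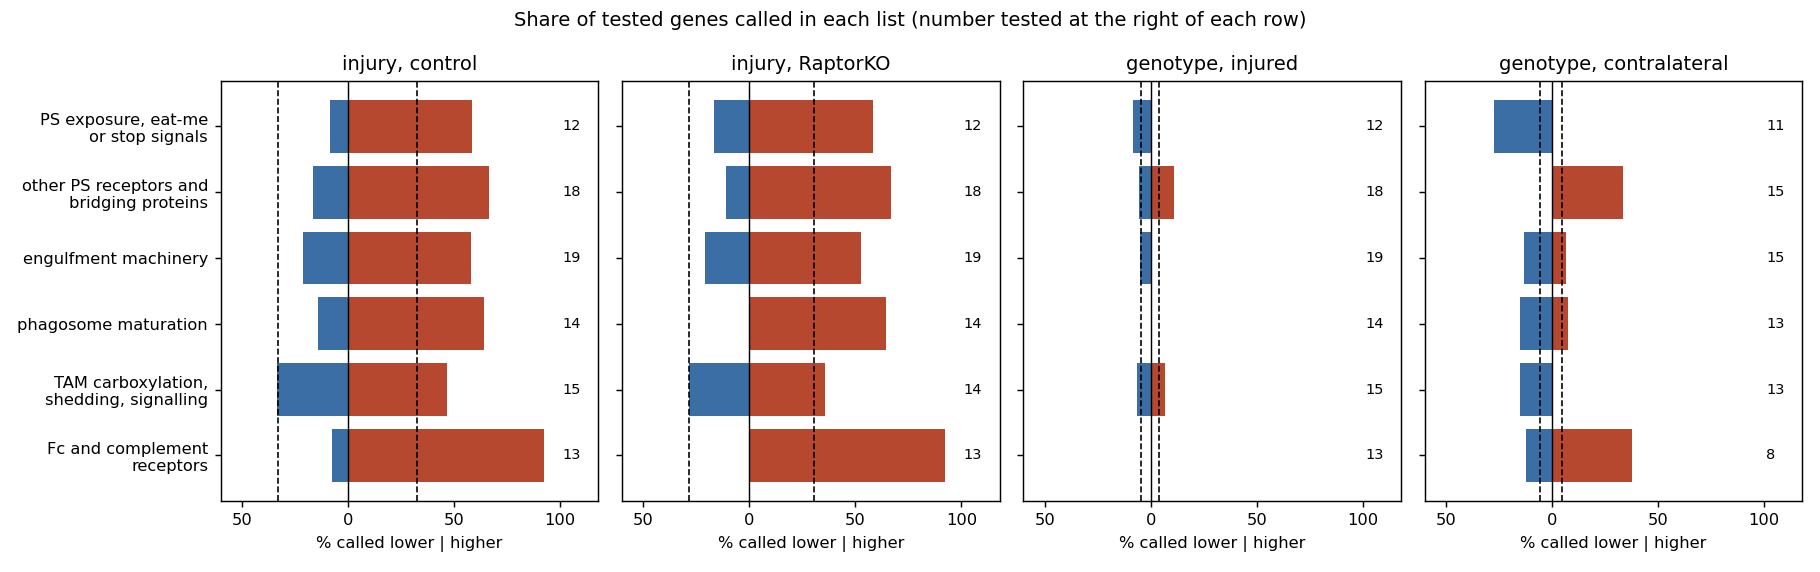
Bars give the share of the tested genes of each of the 6 lists that was called lower (blue, to the left) or higher (red, to the right) in 4 comparisons, the number at the right is the number of genes tested, and dashed lines mark the shares over all genes tested. After injury the higher shares exceed the dashed line in all 6 lists, with 92.3% for the Fc and complement receptors in both genotypes, and between genotypes in injured nerves no list exceeds 11.1%.

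Between genotypes 7 of the 91 tested genes of the 6 lists were called in injured nerves, 4 lower and 3 higher, beside 4.44% lower and 4.09% higher of all genes tested, so that the lists as a whole lay near the background. Gulp1 was lower in RaptorKOs (81.2 against 43.1 CPM, log2 fold change -0.90, adjusted p = 0.00191), as were Anxa1 (-0.70, adjusted p = 0.00373), Edil3, which encodes a phosphatidylserine-binding relative of MFG-E8 (-1.35, adjusted p = 0.00154), and Pik3r1 (-0.37, adjusted p = 0.0456). Plcg1, a phospholipase downstream of receptor kinases, was higher (0.89, adjusted p = 0.00184), as were Pear1 (0.95, adjusted p = 0.0140) and the scavenger receptor gene Scarf1 (0.92, adjusted p = 0.0456). None of the 13 Fc and complement receptor genes or the 14 phagosome maturation genes was called by edgeR's quasi-likelihood test, with 1 and 0 at an unadjusted p below 0.05 and 0 by DESeq2 in both lists. The higher endothelial and pericyte levels given above for the injured RaptorKOs stand beside Pear1, Scarf1, and Plcg1, and their part was not tested.

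In contralateral nerves the lists divided. Higher in RaptorKOs were 5 of 15 tested phosphatidylserine receptor and bridging genes, with C1qb (log2 fold change 0.89, adjusted p = 2.71e-04) and C1qa (0.87, adjusted p = 0.00128) first, and 3 of 8 Fc and complement receptor genes, with Fcer1g (0.90, adjusted p = 0.00887) and Itgam (1.69, adjusted p = 0.0112) first, beside 4.49% higher and 5.68% lower of all genes tested. Dock2 (0.998) and Cybb (1.07) were also higher. Among the genes lower in RaptorKOs were Sirpa, the receptor of CD47 (-0.51), Tmem30a (-0.42), Anxa1 (-0.38), Gulp1 (-0.57), Rac1 (-0.30), Rab5a (-0.47), Pik3r1 (-0.49), Adam10 (-0.37), and C3 (-1.73, from 418 to 125 CPM). The macrophage, fibroblast, mast cell, and erythrocyte marker levels given beside Stab1 moved with the genes that were higher, and the summed SC markers (39227 to 43865 CPM in controls, 31732 to 40101 CPM in RaptorKOs) overlapped between the genotypes. The part of the cell types in these differences was not tested. The interaction was called for 2 of the 91 tested list genes, beside 1.41% lower and 1.07% higher of all genes. One was Trem2 (-1.41, SE 0.28, adjusted p = 0.0165, edgeR's quasi-likelihood test). Trem2 had only 19 to 40 counts in control contralateral libraries. Its injured groups overlapped (100 to 137 CPM in controls, 83.5 to 126 CPM in RaptorKOs). Of the 10 macrophage markers, 2 were called lower and 0 higher for the interaction, with a median of -0.80. Their part in the value of Trem2 was not tested.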

How the data were processed

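Total RNA of sciatic nerves (13 libraries, of crushed nerves the part distal to the crush) was sequenced after preparation with an Illumina TruSeq kit. The authors trimmed reads with Trimmomatic, aligned them to GRCm38, and deposited the expected counts of RSEM 1.2.22, which are estimated counts per gene without normalization. Between 24.9% and 27.9% of the nonzero values per library had decimals, and all were rounded here. Strand use in counting is not stated in the sources used here. No value columns were left out.

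Counts were analysed with edgeR 4.0.16 (TMM factors, quasi-likelihood test, Benjamini-Hochberg adjustment over all genes tested) in R 4.3.3, with limma 3.58.1 and DESeq2 1.42.0. The 2 groups compared entered each fit, and all 4 groups that of the interaction. Genes needed 50 counts in 2 or more libraries of the comparison. log2 CPM used a prior count of 2. Exon lengths are merged exons of GENCODE M21, to which 40634 of 40787 gene IDs matched. Plots were made in Python 3.11.15 (matplotlib 3.10.9).

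Alternatives were edgeR's exact test, which is the test of the paper, DESeq2, RLE factors, no count filter, a replicate block, a stricter threshold, all libraries in 1 fit, and each library left out. Between genotypes the replicate block joined control and RaptorKO nerves of equal number, which come from different mice with no stated link. RaptorKO contralateral 4 had no such partner and was left out there. Leaving out both nerves of control replicate 3 was chosen after seeing the data. The 10 genes, the lists, and the marker lists were chosen with earlier results of these data known. The genes named are the 10 members, Rptor, the 2 called genes with the smallest p per list, comparison, and direction, and the 3 genes most alike to each TAM gene. A gene that the rule names and the driver of the Cre are not reported here. Genes outside this rule are Anxa1 in contralateral nerves and Trem2 in controls, chosen after their values were seen, and those named as overlapping or as markers. The script was tested on simulated data. The crush was unilateral and the titles number injured and contralateral nerves alike, so equal numbers within a genotype may mark 1 mouse. The paper speaks of corresponding contralateral nerves, but the sources used here do not state what the numbers mark. The main fits did not pair the nerves and treated them as independent. The p-values measure the spread between these libraries. With 3 or 4 libraries a group and 42 counts or more in the tested members, precision is set by the replicates rather than by depth, except for the scarce Tyro3.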

Additional observations from a re-analysis of the deposited data

Results flagged for a closer look

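Among the 10 genes in RaptorKO contralateral nerves, the 1 group of 4 libraries, 2 had a library far from the other 3. Pros1 was 51.0 CPM in RaptorKO contralateral 2 against 56.8 to 57.5 CPM in the others, and Mfge8 was 70.3 CPM in RaptorKO contralateral 3 against 53.7 to 55.0 CPM. Chance marks about 1 in 20 such groups, and 10 were checked. RaptorKO contralateral 3 is also the library with the highest Axl, Gas6, and adipocyte marker levels.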

How the results depend on the processing

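The direction of the 7 calls after injury in controls and of the 8 in RaptorKOs was kept in all 14 alternatives, as was that of Pros1 in injured nerves (13 alternatives) and of Stab1 in contralateral nerves (14) between genotypes. Of the numbers of the 10 genes called, those higher after injury moved by less than 1.5 times. With all 13 libraries in 1 fit, 1 was lower after injury in controls (Gas6 lost), and with an adjusted p below 0.01, 1 was lower in RaptorKOs (Gas6 lost), where leaving out single libraries gave 1 to 2. Between genotypes in injured nerves, DESeq2, no count filter, and the exact test each called 1 higher (Gas6), an adjusted p below 0.01 left 0 lower (Pros1 lost), and single libraries left out gave 0 to 1 higher and 0 to 1 lower. In contralateral nerves, DESeq2 and no count filter called 2 higher (Axl added), a replicate block 3 (Axl and Gas6 added), and an adjusted p below 0.01 or all 13 libraries in 1 fit 0. Single libraries left out gave 0 to 1 there. Between genotypes the block matched nerves of different mice by number alone, so its added calls carry little weight. The cause of these shifts was not tested.

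Signs changed only for values that were not called. Mertk after injury in controls was 0.0334 without the filter, 0.0121 with the replicate block, 0.0144 with all libraries in 1 fit, and -0.179 to 0.0975 with a library left out. With a library left out, the log2 fold changes between genotypes in injured nerves were -0.0701 to 0.304 for Tyro3, -0.126 to 0.0208 for Megf10, -0.0919 to 0.356 for Stab1, and -0.0790 to 0.103 for Elmo1. In contralateral nerves they were -0.0801 to 0.304 for Megf10, -0.325 to 0.0348 for Mertk, and -0.00601 to 0.245 for Elmo1. Interactions were -0.571 to 0.291 for Gas6, -0.365 to 0.0116 for Megf10, and -0.256 to 0.0472 for Elmo1, whose interaction was 0.0337 with the replicate block.

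Deviations from the group means of same-numbered injured and contralateral nerves correlated across genes at r = 0.0674, 0.129, and 0.305 in controls and -0.0282, 0.204, and 0.190 in RaptorKOs, and control injured 1 was closer to contralateral 2 (0.136), so these correlations did not settle whether the numbers mark mice. Both nerves of control replicate 3 shared their sex-linked counts. The fits without the block were kept, and the replicate block changed no call of the 10 genes after injury. Without both nerves of control replicate 3, 5 rose and 2 fell in controls and no interaction was called. Of all fold changes of the 9 genes under the alternatives, 611 kept their sign and call, 10 gained and 21 lost a call, and 24 changed sign, and 6 group means in CPM moved by over 1 SD without TMM factors. Replicates rather than depth limit the values, except for Timd4 and Tyro3. Over all genes, the calls between genotypes in injured nerves (535 lower, 493 higher) were 700 and 856 without the filter, 219 and 132 at an adjusted p below 0.01, and 271 to 515 and 176 to 484 with a library left out. In contralateral nerves (675 and 533) they were 937 and 881 with the replicate block, 259 and 218 at 0.01, and 278 to 820 and 246 to 598 with a library left out. For the interaction (181 and 137) they were 353 and 245 with DESeq2, 48 and 36 at 0.01, 78 to 163 and 54 to 124 with a library left out, and 62 and 51 without both nerves of control replicate 3. No other scaling moved the median of all genes by over 0.1 on the log2 scale.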
